A study of Mus musculus with 12 samples.

Results

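Chemokines are small secreted proteins that guide migrating cells. The 9 chemokine genes described here were taken by name from the 27978 genes of the deposited expression table. They comprise 6 genes whose transcription is known to be switched on by inflammatory signals (Cxcl1, Cxcl10, Ccl2, Ccl3, Ccl4 and Ccl5, the inducible chemokines) and 3 that are transcribed in the resting brain (Cx3cl1, Cxcl12 and Cxcl14, the constitutive chemokines). The choice used no measured value of the comparisons below, but it was made with earlier results of these data known. The study sequenced total RNA of mouse hippocampus and has 3 groups of 4 libraries, FMT-CON, FMT-DSS and FMT-SP, 12 libraries in all. All the mice had fecal microbiota transplantation (FMT), the transfer of gut microbes from donor feces into a recipient. The series' text calls the third group FMT-DSS+SP, and by its title SP is substance P, a neuropeptide. The sources used here do not give the meaning of CON and DSS, the strain, age and sex of the mice, the source of the feces or the step at which substance P was given. They also leave unsaid if libraries come from different animals, so the p-values below measure only the spread between these libraries, which may be technical.

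Chemokines signal through G-protein-coupled receptors on leukocytes, microglia, neurons and endothelium. Inducible chemokines are classical targets of the transcription factor NF-kB and, for Cxcl10, of interferon signalling, and in the brain they are made mainly by activated microglia, astrocytes and vessel cells. Cx3cl1 (fractalkine) is a membrane-bound chemokine of neurons whose receptor, Cx3cr1, is carried by microglia. Cxcl12 is made by vessel and meningeal cells and some neurons, acts through Cxcr4, and is taken up by the scavenging receptor Ackr3. Cxcl14 is a chemokine of epithelia and of certain interneurons.

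The promoters of 3 inducible members and 1 constitutive member are printed because they were searched for the motifs of the known regulators of inducible chemokines. The set of RefSeq promoters used here (mouse build GRCm38.p6) held an entry for 6 of the 9 members: Cxcl1, Cxcl10, Ccl3, Cx3cl1, Cxcl12 and Cxcl14. Each window covers the bases from 250 to 11 before the annotated start, 240 bases, and reads 5′ to 3′ on the gene's strand. Capitals mark matches, on either strand, to the NF-kB consensus or to the core of the interferon-stimulated response element, GAAANNGAAA. The windows are chr5:90890995-90891234 on the plus strand for Cxcl1, chr5:92348900-92349139 on the minus strand for Cxcl10, chr11:83649389-83649628 on the minus strand for Ccl3 and chr6:117168285-117168524 on the plus strand for Cxcl12.
Cxcl1: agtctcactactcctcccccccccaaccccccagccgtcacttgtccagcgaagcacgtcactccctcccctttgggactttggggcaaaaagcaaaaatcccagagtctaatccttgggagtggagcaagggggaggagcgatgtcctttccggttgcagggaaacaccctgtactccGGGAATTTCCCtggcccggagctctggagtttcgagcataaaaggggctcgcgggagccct
Cxcl10: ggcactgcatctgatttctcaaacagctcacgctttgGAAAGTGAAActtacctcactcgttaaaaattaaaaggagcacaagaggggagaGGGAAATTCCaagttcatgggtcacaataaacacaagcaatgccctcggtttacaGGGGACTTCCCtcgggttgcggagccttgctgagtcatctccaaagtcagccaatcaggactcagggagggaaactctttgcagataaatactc
Ccl3: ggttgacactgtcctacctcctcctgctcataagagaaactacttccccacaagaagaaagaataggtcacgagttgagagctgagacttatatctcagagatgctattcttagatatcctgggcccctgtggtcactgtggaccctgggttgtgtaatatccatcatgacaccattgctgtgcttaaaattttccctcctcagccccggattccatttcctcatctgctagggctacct
Cxcl12: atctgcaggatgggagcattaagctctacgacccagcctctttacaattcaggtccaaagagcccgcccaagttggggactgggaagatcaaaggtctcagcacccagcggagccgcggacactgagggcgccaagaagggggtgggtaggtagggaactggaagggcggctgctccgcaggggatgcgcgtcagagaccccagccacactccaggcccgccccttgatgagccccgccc
The Cxcl1 window held 2 overlapping NF-kB matches, which begin 71 and 70 bases before the start. The Cxcl10 window held NF-kB matches beginning 159, 104 and 103 bases before the start, the last 2 overlapping, and an interferon-type match beginning 213 bases before it. Of 32841 RefSeq promoter windows of that length, 6.97% held the NF-kB motif and 2.87% the interferon-type motif. The windows of the inducible Ccl3 and the constitutive Cx3cl1 and Cxcl12 held neither, and that of the constitutive Cxcl14 held an interferon-type match beginning 172 bases before the start. A match describes the letters of the window and not a site in use.

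Values are FPKM, fragments scaled to transcript length and to the mapped fragments of a library, as the authors computed them. Depth, estimated from the steps of low values, was smallest in FMT-DSS 3 (31.5 M mapped fragments) and greatest in FMT-DSS 2 (37.05 M). All 10 hippocampal neuron markers were present in every library, and their sum lay between 235 and 332 FPKM. Libraries FMT-DSS 2 and FMT-DSS 4 stood apart. The summed level of 8 monocyte and neutrophil markers was 172 FPKM in FMT-DSS 2, 25.0 in FMT-DSS 4 and between 0.256 and 8.76 in the other 10 libraries, while that of 10 microglia markers was 81.8 and 57.3 FPKM there against 97.2 to 137 in the others. Marker sums of neighbouring tissue also varied: choroid plexus markers from 54.0 to 4199.5 FPKM, and pituitary markers from 2.99 to 24.0 FPKM except in FMT-CON 3, at 3592. Mitochondrially encoded genes took 24.0% to 29.0% of all FPKM in the 3 libraries numbered 4 and 15.9% to 20.3% in the other 9. In such bulk tissue, fewer cells of a type and less RNA per cell cannot be told apart.

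The 6 inducible chemokines were low in 11 of the 12 libraries, at no more than 1.05 FPKM each, and were all highest in FMT-DSS 2. Their fragments summed to 385 in that library and to between 9 and 49 in each of the others, which corresponds to a summed level of 11.3 FPKM against 0.331 to 1.64. FMT-DSS 2 was the highest library in 11.5% of the 17321 genes tested. No other library of its group shared the pattern: the sums were 28 fragments in FMT-DSS 1, 21 in FMT-DSS 3 and 49 in FMT-DSS 4, inside the range of the FMT-CON libraries, which was 15 to 49.

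**Figure D1:**
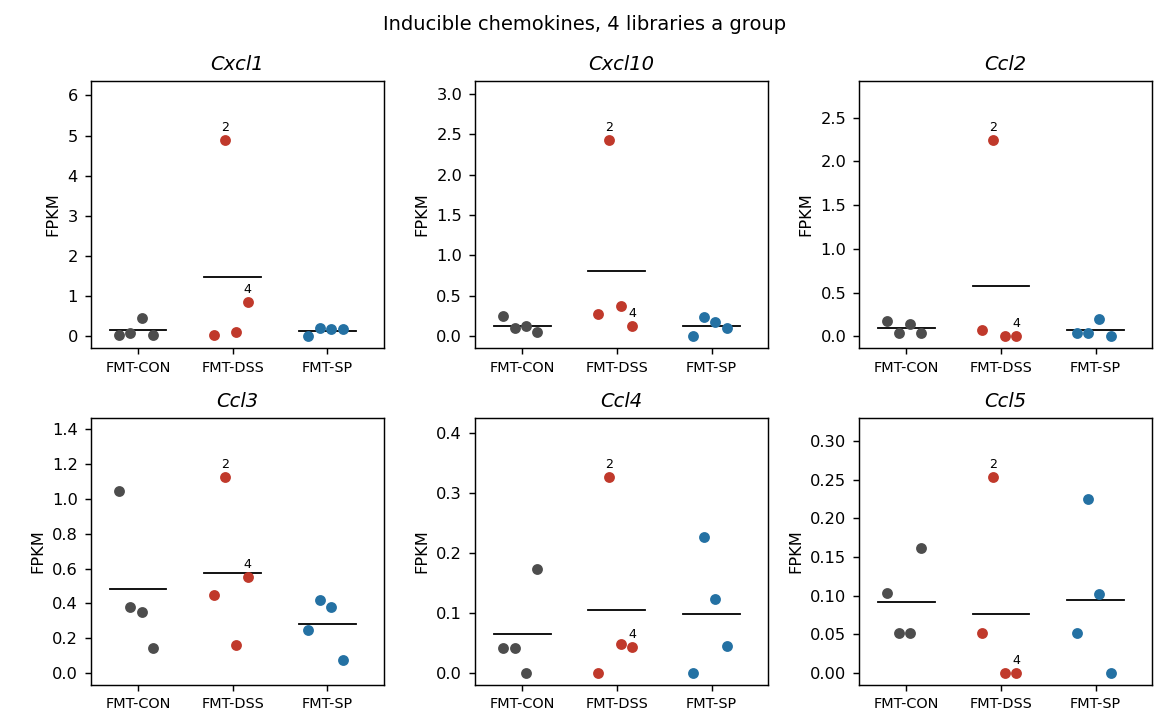
FPKM (vertical axis, a separate linear scale in each panel) of the 6 inducible chemokines in the 4 libraries of each group. Points are libraries, horizontal lines are group means, and the digits 2 and 4 mark FMT-DSS 2 and FMT-DSS 4. In every panel FMT-DSS 2 is the highest point, from 0.254 FPKM for Ccl5 to 4.89 FPKM for Cxcl1.

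Cxcl1, a chemoattractant of neutrophils that acts through Cxcr2, was at 0.0288, 0.0859, 0.464 and 0.0300 FPKM in FMT-CON 1 to 4, at 0.0286, 4.89, 0.0998 and 0.849 in FMT-DSS 1 to 4, and at 0, 0.220, 0.171 and 0.186 in FMT-SP 1 to 4. FMT-DSS 2 stood highest, with FMT-DSS 4 next and FMT-CON 3 after it. FMT-DSS 3 lay inside the FMT-CON range and FMT-DSS 1 just under it, so the groups overlapped. The level in FMT-DSS 2 rested on 173 fragments, with an exact 95% Poisson interval of 148 to 201, and that in FMT-DSS 4 on 28 (18.6 to 40.5). Such intervals cover counting error only. FMT-DSS 2 alone held 70.6% of all Cxcl1 fragments of the series. The value of 0 in FMT-SP 1 allows up to 0.0868 FPKM, the worth of 3 fragments.

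Cxcl10, which attracts activated T cells through Cxcr3, was at 0.250, 0.0993, 0.126 and 0.0521 FPKM in the 4 FMT-CON libraries in order, at 0.273, 2.43, 0.375 and 0.131 in FMT-DSS, and at 0, 0.245, 0.173 and 0.108 in FMT-SP. The FMT-DSS libraries included the 3 highest values, in FMT-DSS 2, 3 and 1, but FMT-DSS 4 lay within the range of both other groups. FMT-DSS 2 had 99 Cxcl10 fragments (80.5 to 121) and the next library, FMT-DSS 3, had 13 (6.92 to 22.2). Unlike Cxcl1, Cxcl10 was not raised in FMT-DSS 4, where 5 fragments were found.

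Ccl2, the monocyte attractant that acts through Ccr2, was at 0.171, 0.0339, 0.137 and 0.0356 FPKM in FMT-CON, at 0.0678, 2.24, 0 and 0 in FMT-DSS, and at 0.0343, 0.0372, 0.203 and 0 in FMT-SP. One library carried almost all of it: FMT-DSS 2 held 67 of 88 fragments (76.1%), and no other library had more than 6. The FMT-DSS group thus contained both the highest library and 2 of the 3 libraries at 0, each of which allows up to 0.118 FPKM in FMT-DSS 3 and 0.108 in FMT-DSS 4.

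Ccl3 and Ccl4 encode macrophage inflammatory proteins 1-alpha and 1-beta, Ccl5 encodes RANTES, and Ccl3 and Ccl5 signal through Ccr1, among other receptors. Ccl3 was at 1.05, 0.381, 0.351 and 0.145 FPKM in FMT-CON, at 0.450, 1.13, 0.161 and 0.550 in FMT-DSS, and at 0.245, 0.417, 0.379 and 0.0751 in FMT-SP. FMT-CON 1 came close to FMT-DSS 2: FMT-CON 1 had 30 fragments (20.2 to 42.8) and FMT-DSS 2 had 33 (22.7 to 46.3), which overlap within counting error.

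Ccl4 was at 0.0417, 0.0414, 0 and 0.174 FPKM in FMT-CON, at 0, 0.327, 0.0481 and 0.0439 in FMT-DSS, and at 0, 0.227, 0.124 and 0.0450 in FMT-SP. Ccl5 was at 0.103, 0.0514, 0.0521 and 0.162 FPKM in FMT-CON, at 0.0514, 0.254, 0 and 0 in FMT-DSS, and at 0.0519, 0.225, 0.102 and 0 in FMT-SP. Both genes rested on few fragments in every library, with at most 8 fragments for Ccl4 and 5 for Ccl5. For both, FMT-DSS 2 was highest and FMT-SP 2 next, and the pair did not differ beyond counting error: 8 against 5 fragments for Ccl4 and 5 against 4 for Ccl5.

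What Cxcl1, Cxcl10 and Ccl2 shared was 1 high library, FMT-DSS 2. Across the 12 libraries, Pearson's r of log2(FPKM + 0.1) was 0.73 between Cxcl1 and Cxcl10, 0.80 between Cxcl10 and Ccl2, and 0.69 between Cxcl1 and Ccl2. Over the 11 libraries without FMT-DSS 2 these values were 0.15, 0.14 and -0.13. Ccl4 and Ccl5 had r = 0.76, and 0.66 without it, and Ccl2 and Ccl3 had r = 0.68, and 0.56 without it. These correlations describe libraries that share their depth and a pseudocount at or above many of the levels.

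The high library also carried transcripts of the monocyte and neutrophil list. S100a9 and S100a8, abundant calcium-binding proteins of neutrophils, reached 101 and 58.6 FPKM in FMT-DSS 2, 12.8 and 8.42 FPKM in FMT-DSS 4, and at most 5.61 and 2.49 elsewhere. Retnlg, another neutrophil transcript, reached 9.28 FPKM in FMT-DSS 2, 3.48 in FMT-DSS 4 and at most 0.403 in the others, whereas Mpo, of immature neutrophils, was under 0.1 FPKM in all 12. All 8 markers of the monocyte and neutrophil list were above 0 in FMT-DSS 2. Of 9 lymphocyte markers, 6 (among them Cd3e, Cd3g, Cd8a, Ms4a1 and Gzma) stayed under 0.1 FPKM in every library. That list summed to 0.151 to 3.34 FPKM over the libraries, and to 0.399 in FMT-DSS 2. The sum of 5 red cell markers was 588 FPKM in FMT-DSS 2, 717 in FMT-DSS 4 and 1337 in FMT-SP 2. In FMT-SP 2 the monocyte and neutrophil sum was 1.58 FPKM. FMT-DSS 4 had the second highest monocyte and neutrophil sum and the second highest Cxcl1, but 0 fragments of Ccl2 and Ccl5. The part of these cells in the chemokine values was not tested.

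Genes of reactive astrocytes were high in the same library. A list of 9, which includes the member Cxcl10, summed to 431 FPKM in FMT-DSS 2 and to 61.6 to 108 FPKM in the other 11 libraries, and 8 of the 9 genes were highest in FMT-DSS 2. Lcn2, which encodes the secreted iron-carrier protein lipocalin and is also made by neutrophils, was at 285 FPKM in FMT-DSS 2 and at no more than 30.6 elsewhere. Serpina3n, a protease inhibitor, was at 76.5 FPKM there and at no more than 41.2 elsewhere. By limma, 0 of the 9 passed in any comparison, and 1, Cxcl10 itself, was at an unadjusted p under 0.05, in FMT-SP against FMT-DSS. Of all genes tested, 0% passed and 3.25% were at that level in that comparison. The part of reactive astrocytes in the chemokine values was not tested.

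**Figure D2:**
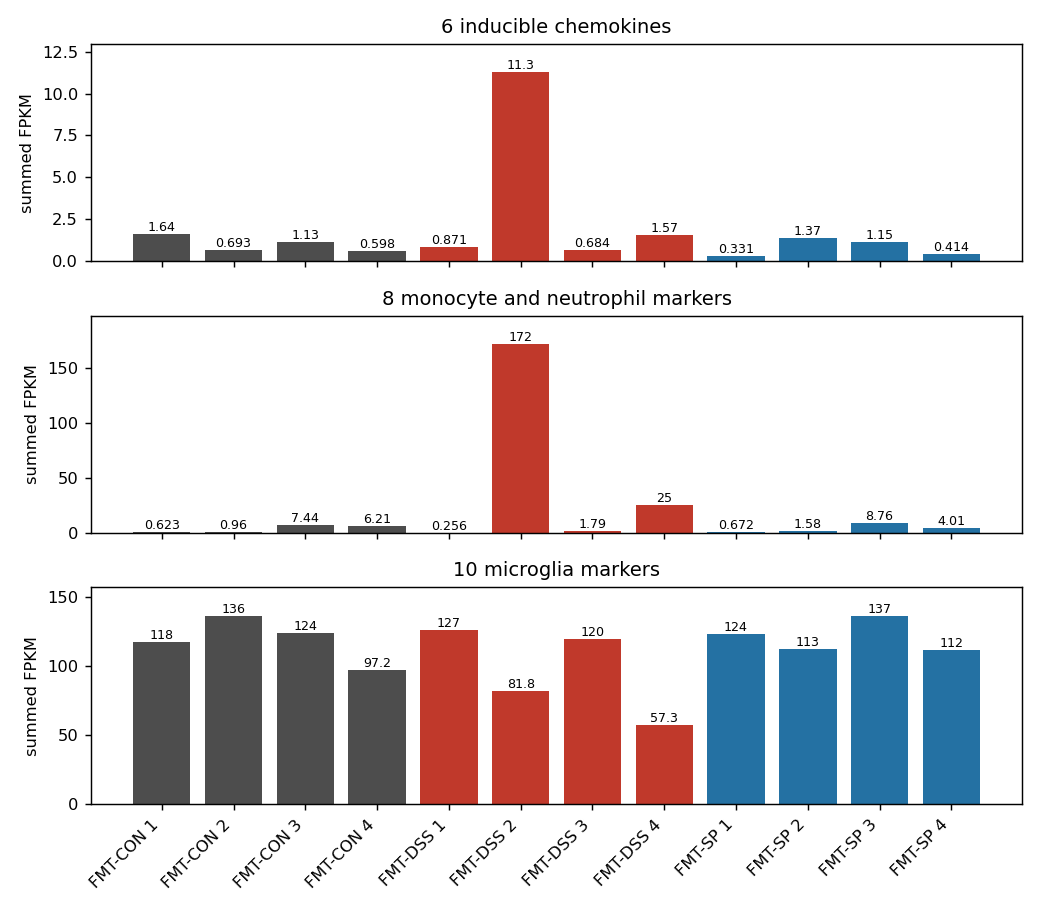
Summed FPKM (vertical axes, linear from 0) in each of the 12 libraries (horizontal axis, coloured by group) for the 6 inducible chemokines, the 8 monocyte and neutrophil markers and the 10 microglia markers. FMT-DSS 2 has the tallest bar in the first 2 panels, at 11.3 and 172 FPKM, and with FMT-DSS 4 the lowest bars in the last, at 81.8 and 57.3 FPKM.

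The 3 constitutive members were measured far above the inducible ones, on at least 1110 fragments in every library. Cx3cl1 was at 178, 204, 186 and 191 FPKM in FMT-CON, at 210, 159, 176 and 141 in FMT-DSS, and at 209, 180, 176 and 186 in FMT-SP. FMT-DSS 4 was lowest and FMT-DSS 2 next to lowest, but FMT-DSS 1 was the highest of all 12, so that the FMT-DSS group spanned the whole range. Its coefficient of variation over the 12 libraries was 11%, and it rested on 15259 to 24173 fragments.

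Cxcl14 was at 24.0, 30.1, 29.5 and 26.0 FPKM in FMT-CON, at 27.3, 23.7, 28.0 and 21.5 in FMT-DSS, and at 30.7, 29.1, 24.0 and 28.9 in FMT-SP. FMT-DSS 4 and FMT-DSS 2 were again the 2 lowest libraries, close to FMT-CON 1 and FMT-SP 3, and the groups overlapped. Its coefficient of variation was 11.1%. Cxcl14 and Cx3cl1 varied together, with r = 0.79 over the 12 libraries and 0.76 without FMT-DSS 2, a description of libraries that share depth and composition.

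Cxcl12 varied most of the 3, with a coefficient of variation of 33.5%. It was at 9.86, 10.1, 8.42 and 5.67 FPKM in FMT-CON, at 9.06, 4.18, 9.52 and 5.91 in FMT-DSS, and at 8.44, 14.9, 11.8 and 6.72 in FMT-SP. FMT-DSS 2 was lowest, on 1110 fragments, and the next 3 were the libraries numbered 4 of each group, which were also those with the largest mitochondrial share. FMT-SP 2 and FMT-SP 3 were the 2 highest. Among the libraries numbered 4 alone, the order was FMT-CON, FMT-DSS and FMT-SP, at 5.67, 5.91 and 6.72 FPKM.

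**Figure D3:**
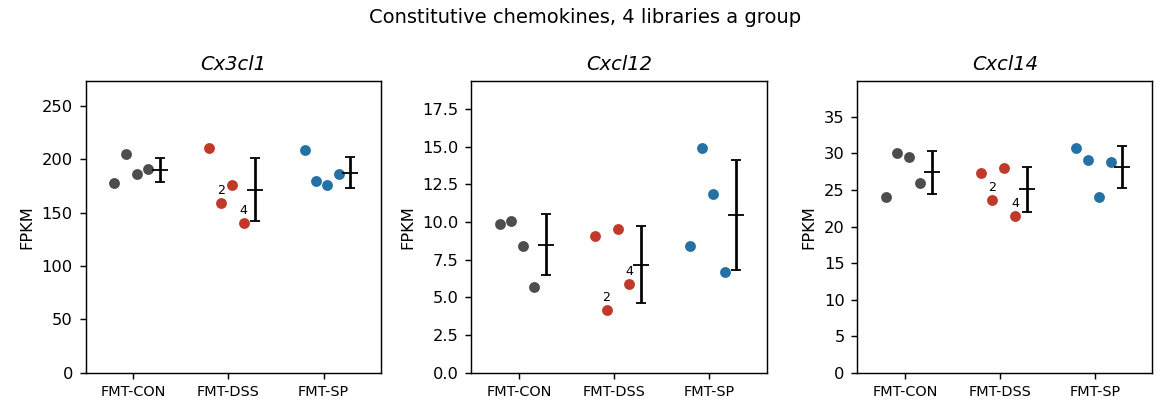
FPKM (vertical axis, linear from 0) of Cx3cl1, Cxcl12 and Cxcl14 in the 4 libraries of each group; points are libraries, and the bar and whiskers are the group mean ± SD. The digits mark FMT-DSS 2 and FMT-DSS 4, which are the 2 lowest libraries for Cx3cl1 and Cxcl14.

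Levels in FPKM can be set beside each other because they are per length. Cx3cl1 ranked 251st of 27978 genes by its mean of 183 FPKM, Cxcl14 ranked 2186th at 26.9 FPKM and Cxcl12 ranked 5887th at 8.72 FPKM. These 3 did not overlap one another in any library. By the median over the 12 libraries, the inducible members followed in the order Ccl3 (0.380 FPKM), Cxcl10 (0.152), Cxcl1 (0.135), Ccl5 (0.0520), Ccl4 (0.0444) and Ccl2 (0.0364), and neighbours in that order overlapped. By the mean, the order began with Cxcl1 at 0.588 FPKM, ahead of Ccl3 at 0.444, because of the single value in FMT-DSS 2.

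The first comparison, FMT-DSS against FMT-CON, concerns the hippocampus after the FMT-DSS transplantation. The inducible members had higher means in FMT-DSS for Cxcl1 (1.47 ± 2.31 against 0.152 ± 0.210 FPKM, SD, n = 4 each), Cxcl10 (0.802 ± 1.09 against 0.132 ± 0.0845) and Ccl2 (0.578 ± 1.11 against 0.0944 ± 0.0702), each with an SD above the mean. The constitutive members had lower means in FMT-DSS, at 171 ± 29.6 against 190 ± 11.2 FPKM for Cx3cl1, 7.17 ± 2.56 against 8.50 ± 2.02 for Cxcl12 and 25.1 ± 3.07 against 27.4 ± 2.93 for Cxcl14. None of these differences passed the test.

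The test was limma on log2(FPKM + 0.1) over all genes whose mean reached 0.1 FPKM, which took in 7 of the 9 members and left out Ccl4 and Ccl5, whose means lay just under that limit. With an adjusted p under 0.05 as the threshold, 0 of the 7 members and 0% of the 17321 genes were called. At an unadjusted p under 0.05 the counts were 0 of 7 members and 772 genes (4.46%), and 0 of the 9 members had groups that did not overlap, against 1.9% of all genes tested. The log2 changes were 1.53 ± 0.952 (SE) for Cxcl1, with a 95% interval of -0.53 to 3.59, and 1.36 ± 0.633 for Cxcl10, with -0.01 to 2.73. Cxcl10 had an unadjusted p of 0.0519 and an adjusted p of 0.949 by limma. Ccl2 had a log2 change of 0.44 ± 0.831 and Ccl3 of 0.23 ± 0.536.

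Much of the size of these values came with FMT-DSS 2. When that library was left out, the log2 change was 0.50 for Cxcl1, 0.64 for Cxcl10, -0.64 for Ccl2 and -0.13 for Ccl3, and the FMT-DSS means over the other 3 libraries were 0.326 ± 0.454 FPKM for Cxcl1 and 0.260 ± 0.122 for Cxcl10. Leaving out FMT-DSS 4 as well gave -0.35 for Cxcl1, which thus also turned to the lower side. It gave -0.51 for Ccl2 and -0.39 for Ccl3, which stayed on that side, and 0.93 for Cxcl10. Of the 4 inducible members tested, Cxcl10 alone kept its direction in both cases. FMT-DSS 2 and FMT-DSS 4 were left out because they stood apart in these same data, and they held the highest Cxcl1 values. Leaving them out thus lowers the FMT-DSS level of Cxcl1 by construction, and only FMT-DSS 1 and FMT-DSS 3 remain.

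Among the constitutive members the intervals were narrow for Cx3cl1 and Cxcl14 and wider for Cxcl12. Cx3cl1 had a log2 change of -0.16 ± 0.114 (95% interval -0.41 to 0.09), Cxcl14 of -0.13 ± 0.116 (-0.38 to 0.13) and Cxcl12 of -0.28 ± 0.299 (-0.93 to 0.36). Leaving out FMT-DSS 2 and FMT-DSS 4 together, the lowest FMT-DSS libraries for each of these genes, moved them to 0.02, 0.02 and 0.16. The median over all 17321 genes was -0.04.

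FMT-SP against FMT-DSS asks how the group with substance P differed from FMT-DSS, and it uses the same FMT-DSS libraries as the comparison above. The 4 inducible chemokines that were tested had lower means in FMT-SP: 0.144 ± 0.0983 against 1.47 ± 2.31 FPKM for Cxcl1 (SD, n = 4 each), 0.131 ± 0.104 against 0.802 ± 1.09 for Cxcl10, 0.0685 ± 0.0910 against 0.578 ± 1.11 for Ccl2 and 0.279 ± 0.155 against 0.572 ± 0.405 for Ccl3. Cxcl12 was at 10.5 ± 3.63 against 7.17 ± 2.56 FPKM, Cx3cl1 at 188 ± 14.7 against 171 ± 29.6 and Cxcl14 at 28.2 ± 2.88 against 25.1 ± 3.07. No member passed the test here either.

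By limma, 0 of 7 members and 0% of all genes tested had an adjusted p under 0.05. At an unadjusted p under 0.05 there was 1 member of 7, Cxcl10, beside 563 genes (3.25%), and 0 of 9 members had groups without overlap, against 1.59% of genes. Cxcl10 had a log2 change of -1.43 ± 0.633, with a 95% interval of -2.80 to -0.06, an unadjusted p of 0.0421 and an adjusted p of 0.998. Its value was -0.71 (-1.69 to 0.27) without FMT-DSS 2 and -1.0 (-2.09 to 0.09) without FMT-DSS 2 and FMT-DSS 4. It was -1.07, with an unadjusted p of 0.128 by limma, without FMT-SP 1, in which no Cxcl10 fragment was found.

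Cxcl1 had a log2 change of -1.40 ± 0.952, Ccl2 of -0.70 ± 0.831 and Ccl3 of -0.73 ± 0.536. Without FMT-DSS 2 the values were -0.38, 0.37 and -0.37, so that the sign of Ccl2 turned. Cxcl12 had a log2 change of 0.55 ± 0.299 (95% interval -0.10 to 1.20), which was 0.32 without FMT-DSS 2 and 0.11 without both libraries. Cx3cl1 and Cxcl14 had changes of 0.14 ± 0.114 and 0.17 ± 0.116, beside a median over all genes of 0.03.

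**Figure D4:**
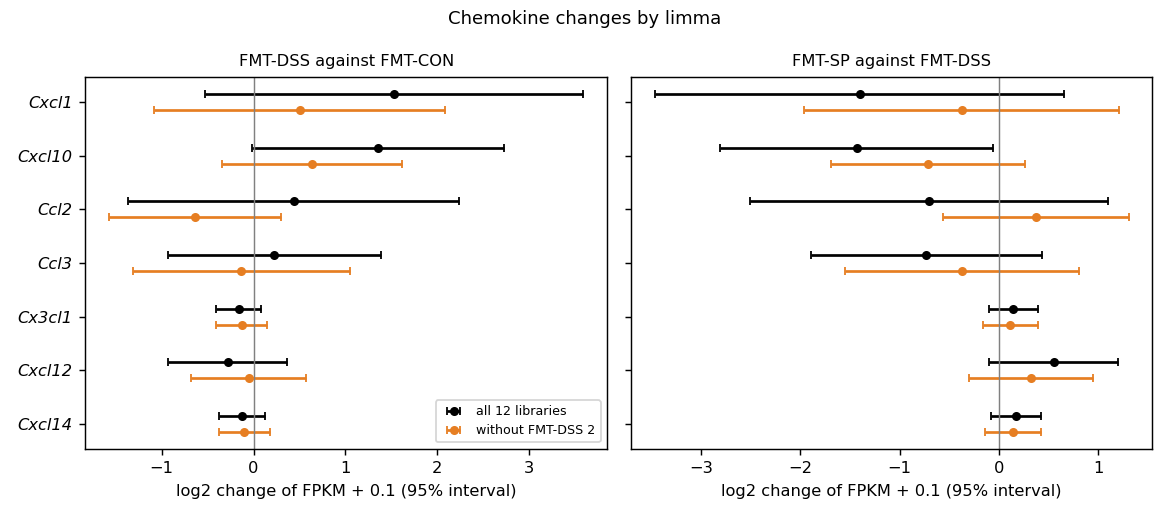
Log2 change of FPKM + 0.1 (horizontal axes) with its 95% interval by limma for the 7 chemokines tested, in FMT-DSS against FMT-CON (left) and FMT-SP against FMT-DSS (right). Black points use all 12 libraries and orange points leave out FMT-DSS 2. Every interval but that of Cxcl10 on the right, -2.80 to -0.06, includes 0, and the orange points of the inducible genes lie nearer to 0 or on its other side.

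FMT-SP against FMT-CON compares the substance P group with FMT-CON, and neither group contains the 2 libraries that stood apart. The 4 inducible members tested had log2 changes of 0.12 ± 0.952 for Cxcl1, -0.07 ± 0.633 for Cxcl10, -0.27 ± 0.831 for Ccl2 and -0.51 ± 0.536 for Ccl3. Their group means were close for Cxcl10, at 0.131 ± 0.104 and 0.132 ± 0.0845 FPKM, and for Cxcl1, at 0.144 ± 0.0983 and 0.152 ± 0.210. For Cx3cl1 the log2 change was -0.02 (95% interval -0.27 to 0.23), for Cxcl14 0.04 (-0.21 to 0.29) and for Cxcl12 0.27 (-0.38 to 0.91). The limma counts were 0 of 7 members and 0% of genes at an adjusted p under 0.05, and 0 of 7 members and 136 genes (0.785%) at an unadjusted p under 0.05. Groups did not overlap for 0 of 9 members and 0.756% of genes. The intervals of the inducible genes still include 2-fold differences of FPKM + 0.1 in both directions for Cxcl1, Cxcl10 and Ccl2. Their width, however, comes from a spread estimated over all 12 libraries, FMT-DSS 2 among them. Fitted without FMT-DSS 2, the intervals were -1.34 to 1.59 for Cxcl1, -0.98 to 0.83 for Cxcl10 and -1.13 to 0.60 for Ccl2. Of these, that of Cxcl1 alone includes 2-fold differences of FPKM + 0.1 in both directions. At such low levels a 2-fold difference of FPKM itself is smaller on this scale. It can therefore still lie inside the intervals of Cxcl10 and Ccl2.

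Ccl4 and Ccl5 lay under the filter on low values. Their differences of mean log2(FPKM + 0.1) were 0.18 and -0.30 in FMT-DSS against FMT-CON, 0.06 and 0.23 in FMT-SP against FMT-DSS, and 0.24 and -0.07 in FMT-SP against FMT-CON. With no filter, their unadjusted p-values by limma ranged from 0.505 to 0.911 and their adjusted p-values from 0.945 to 1. The value of a library rested on 0 to 8 fragments.

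The receptors of the members were next measured in the same libraries. Cx3cr1, the microglial receptor of Cx3cl1, was at 9.84, 13.1, 9.76 and 7.37 FPKM in FMT-CON, at 11.7, 1.12, 9.39 and 2.20 in FMT-DSS, and at 9.53, 12.2, 13.9 and 8.44 in FMT-SP. FMT-DSS 2 and FMT-DSS 4 were low and the other 2 FMT-DSS libraries lay inside the FMT-CON range. The ratio of Cx3cl1 to Cx3cr1 was therefore 142 in FMT-DSS 2 and 63.9 in FMT-DSS 4, and between 12.7 and 25.9 in the other 10 libraries. In those 2 libraries the ligand was 159 and 141 FPKM, so the ratio moved mainly with the receptor.

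Cxcr4, the signalling receptor of Cxcl12, was at 0.890, 1.22, 1.06 and 0.897 FPKM in FMT-CON, at 1.24, 0.319, 0.961 and 0.413 in FMT-DSS, and at 0.836, 1.25, 1.45 and 0.691 in FMT-SP. It followed its ligand: r of log2(FPKM + 0.1) was 0.85 over the 12 libraries (Spearman's rho 0.79), and 0.76 without FMT-DSS 2 and FMT-SP 2, the libraries farthest from the median of Cxcl12. Ackr3, which takes up Cxcl12 and lowers its level outside cells, ranged from 3.63 FPKM in FMT-DSS 4 to 9.35 in FMT-DSS 3, with r = 0.54 to Cxcl12, and 0.81 without those 2 libraries. These are descriptions over libraries that share depth and composition.

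**Figure D5:**
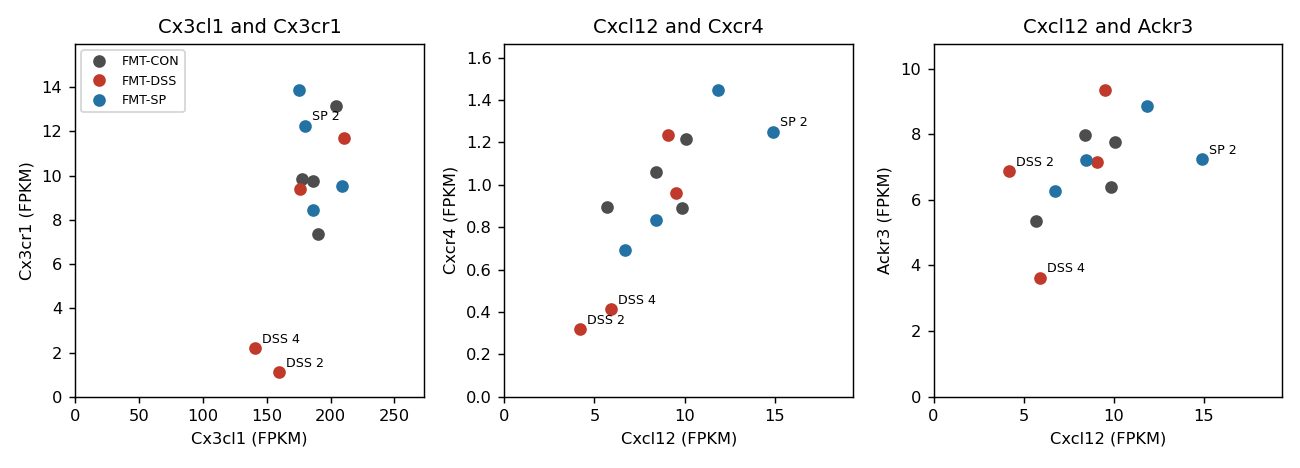
Level of a receptor (vertical axis, FPKM) against that of its chemokine (horizontal axis, FPKM) in 12 libraries coloured by group: Cx3cr1 and Cx3cl1, Cxcr4 and Cxcl12, Ackr3 and Cxcl12. FMT-DSS 2 and FMT-DSS 4 lie lowest for Cx3cr1, at 1.12 and 2.20 FPKM, and for Cxcr4, at 0.319 and 0.413.

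Of the receptors of circulating leukocytes, Cxcr2, Ccr1 and Ccr2 were highest in FMT-DSS 2. Cxcr2, the neutrophil receptor of Cxcl1, had 26 fragments (0.450 FPKM) there, 6 (0.111 FPKM) in FMT-DSS 4 and 0 or 1 in each of the other 10 libraries. Ccr1 had 36 fragments (0.343 FPKM) in FMT-DSS 2 and at most 14 elsewhere, and Ccr2 had 23 (0.131 FPKM) and at most 7. Cxcr3, the receptor of Cxcl10 on activated T cells, had at most 8 fragments in any library and 1 in FMT-DSS 2.

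Most of the 16 listed signalling receptors in the file lay under the filter on low values, and 0 of those tested passed in any comparison. In FMT-DSS against FMT-CON the log2 changes were -1.24 for Cx3cr1 and -0.58 for Cxcr4, with unadjusted p-values by limma of 0.0514 and 0.129. In FMT-SP against FMT-DSS they were 1.37 and 0.59, with unadjusted p of 0.0331 and 0.124, and they share the 2 low FMT-DSS libraries. Microglia markers, a list that holds Cx3cr1, moved with them, with medians of -0.75 and 0.65. In the first comparison 5 of 10 were lower at an unadjusted p under 0.05, beside 4.46% of all genes tested in either direction, and in the second 4 of 10 were higher, beside 3.25%. Without FMT-DSS 2 and FMT-DSS 4, 0 of these 10 were at that level in either comparison, nor was Cxcr4. The medians of the microglia list were then 0.05 and -0.03. The libraries left out held the lowest sums of that list, and only FMT-DSS 1 and FMT-DSS 3 remain in the group. The part of microglia in the receptor values was not tested.

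Of the scavenging receptors, Ackr1, which binds many inflammatory chemokines on venules and red cells, was at 75.2 FPKM in FMT-DSS 2 and between 25.2 and 41.4 in the other 11 libraries. Ccrl2 was at 0.684 FPKM in FMT-DSS 2 and between 0.146 and 0.498 elsewhere, and Ackr2 ranged from 0.0434 to 0.365. Of the 5 genes on the list 4 were tested and 0 passed in any comparison, with medians of 0.22, -0.27 and 0.07 in the order of the comparisons above.

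Among 26 other chemokine genes in the file, 14 were tested and 0 passed in any comparison, nor was any at an unadjusted p under 0.05. Of all genes tested, 4.46%, 3.25% and 0.785% were at that level in the 3 comparisons. Their median log2 changes were 0.08, -0.07 and -0.03. Ccl27a, best known as a chemokine of skin, was the most abundant, at 20.1 to 37.9 FPKM, followed by Ccl25 at 1.57 to 4.26. Ccl6, a chemokine of myeloid cells, was at 2.35 FPKM in FMT-DSS 2 and at 0.504 to 1.44 in the others, and Ccl17 was highest in FMT-DSS 4, at 2.70 FPKM, and in FMT-DSS 2, at 1.67. Cxcl2, a close relative of Cxcl1 named here after its values were seen, had 10 fragments in FMT-DSS 2, 5 in FMT-DSS 4, 1 in FMT-SP 2 and 0 in the other 9 libraries. Of the 26, 9 were highest in FMT-DSS 2 and 2 were lowest there, Cxcl5 at 0.0163 FPKM and Ccl19 at 0.107. Of all genes tested, 11.5% were highest in that library, and of those above 0 in every library 16.7% were lowest in it.

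Proteases that process chemokines had 6 of 7 genes tested and 0 passed. Ctss (cathepsin S), which releases Cx3cl1 from the membrane, was at 64.8 FPKM in FMT-DSS 2 and at 24.7 to 38.1 in the other libraries. Adam10 and Adam17, the main sheddases of Cx3cl1, ranged from 8.01 to 17.6 and from 2.56 to 4.69 FPKM, with log2 changes of -0.17 and -0.15 in FMT-DSS against FMT-CON. Mmp2, which cuts Ccl and Cxcl ligands outside cells, ranged from 0.139 to 1.06 FPKM.

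The cytokines that induce chemokines were barely detected. Il1a was the only one of 7 to be tested, at 0 to 0.494 FPKM, and it had a log2 change of -0.51 in FMT-DSS against FMT-CON, which did not pass. Il1b reached 0.289 FPKM in FMT-CON 4, Lta 0.303 in FMT-DSS 4 and Il6 0.239 in FMT-SP 3. None of these 4 was highest in FMT-DSS 2. Tnf, named here after its values were seen, had its highest count there, 7 fragments, against at most 2 elsewhere.

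NF-kB feedback targets rise with the inducible chemokines in many cells. Nfkbia, which encodes the inhibitor IkB-alpha, was at 16.4, 13.1, 23.2 and 10.3 FPKM in FMT-CON, at 14.7, 38.9, 26.9 and 28.3 in FMT-DSS, and at 16.1, 17.2, 13.8 and 19.3 in FMT-SP. Zfp36, which destabilises chemokine and cytokine mRNAs, was at 3.35, 1.63, 2.80 and 1.82 FPKM in FMT-CON, at 2.65, 17.1, 3.40 and 7.10 in FMT-DSS, and at 1.93, 1.82, 2.47 and 2.67 in FMT-SP. Both were highest in FMT-DSS 2, with FMT-DSS 4 second, unlike Cxcl10 and Ccl2, and the groups overlapped. Vcam1 and Ptgs2 ranged from 3.80 to 9.23 and from 2.88 to 6.94 FPKM.

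Of the 8 feedback targets tested in FMT-DSS against FMT-CON, 0 passed and 4 were higher at an unadjusted p under 0.05: Nfkbia (log2 change 0.77), Tnfaip3 (0.69), Icam1 (1.73) and Zfp36 (1.29). Of all genes tested, 4.46% were at that level in either direction. In FMT-SP against FMT-DSS, 0 passed and 3 were lower at that level, Nfkbia, Icam1 and Zfp36, beside 3.25% of all genes. Without FMT-DSS 2 only Zfp36 was at that level in each comparison. Without FMT-DSS 2 and FMT-DSS 4 none was, with medians of 0.35 and -0.15. The libraries left out held the highest sums of this list, and only FMT-DSS 1 and FMT-DSS 3 remain in the group. With all libraries the list's medians were 0.62, -0.52 and 0.10 in the 3 comparisons, against -0.04, 0.03 and -0.02 over all genes tested.

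Interferon targets form the other known regulon of Cxcl10. Of 10, all tested, 0 passed and 0 were at an unadjusted p under 0.05 in any comparison, with medians of -0.34, 0.36 and 0.02. The share of all genes tested at that level was 4.46%, 3.25% and 0.785%. Isg15, a ubiquitin-like protein, was at 0.750 FPKM in FMT-DSS 2, where Cxcl10 was highest, and ranged from 0.750 to 2.63 over all libraries. Irf1 was highest in FMT-DSS 4, at 3.40 FPKM, and Ifit3 in FMT-CON 1, at 2.28.

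The genes whose levels were most like those of each member over the 12 libraries were listed among 11948 or 11949 genes whose mean reached 1 FPKM, as a description. Cxcl1 was closest to Adamts9 (r = 0.95), Ifitm2 (0.94) and Gstm1 (0.93), all 3 highest in FMT-DSS 2, and r fell to 0.71, 0.71 and 0.74 without FMT-DSS 2 and FMT-DSS 4. Cxcl10 was closest to Gaa (0.92), Rbm33 (0.91) and Slc39a14 (0.89), and Ccl2 to Itgb2 (0.95), Arl6ip1 (0.94) and Tnfrsf1a (0.94). Itgb2, the beta-2 integrin of leukocytes, was at 6.06 FPKM in FMT-DSS 2, and its r was 0.54 without that library and FMT-SP 3.

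The genes closest to Ccl3 included Cops2 (0.94) and Nek7 (0.93), while Ccl4 was closest to Il4ra (0.80), Tap1 (0.77) and Tap2 (0.76), and Ccl5 to Malsu1 (0.86), Ints15 (0.81) and Zcchc3 (0.79). For the constitutive members, r without the 2 libraries farthest from the median lay between 0.80 and 0.93. Cx3cl1 was closest to Cap2 (0.94, and 0.89 without FMT-DSS 1 and FMT-DSS 4), Cdk5r2 (0.91) and Trim9 (0.91). Cxcl12 was closest to Smarcad1, Fam13b and Pot1a (0.93 each), and Cxcl14 to Lix1 (0.94), Pknox2 (0.93) and Kcnc4 (0.92).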

How the data were processed

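The authors deposited 1 table of FPKM values for 27978 genes and 12 libraries. HISAT2 2.0 and the genome build mm8 are named, with no role, per the submitters' processing notes; the read counter, the annotation used and any filters were not given in the sources used here. Groups were taken from the sample titles. Values were tested as log2(FPKM + 0.1) for the 17321 genes whose mean reached 0.1 FPKM, in 1 linear model of all 12 libraries with limma 3.58.1 (R 4.3.3, mean-variance trend), two-sided, with Benjamini-Hochberg adjustment over all genes tested and a threshold of 0.05. A log2 change on this scale understates the change of low genes. The fit was tested on simulated data.

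Fragments were recovered because FPKM values are whole multiples of the worth of 1 fragment: all 9 members and 194 of 208 listed genes (93.3%) gave whole numbers within 0.02. Depth came from 1362 single-transcript genes. No 2 libraries were identical.

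The members and gene lists were chosen with earlier results of these data known. Named were all members, up to 4 members of each pathway list by mean level, the receptors of the members, and 3 most similar genes a member among genes whose mean reached 1 FPKM. As alternatives, the pseudocount was set to 1 and the filter to 1 FPKM or none. Also run were 3 rescalings, array weights, a robust fit, a replicate block, a fit of only the 8 libraries compared, and fits without single libraries. A further fit left out FMT-DSS 2 and FMT-DSS 4 together, which stood apart in these same data. Counts of listed genes without FMT-DSS 2 or FMT-DSS 4 were added after seeing the data. A few named genes are not reported here. Promoters are RefSeq's (GRCm38.p6), a build other than that named for the values, and were matched by symbol only. Python 3.11.15 was used.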

Additional observations from a re-analysis of the deposited data

Results flagged for a closer look

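In groups of 4 libraries, 27 sets of member values (9 genes in 3 groups) were checked for 1 library lying far from the other 3 by Dixon's ratio at the 95% level, and 5 were found. For normally distributed values, chance gives about 1 in 20 such groups. Many values here rest on few fragments and the sets share libraries, so that rate need not hold. Of the 5, 4 were in FMT-DSS 2: Cxcl1 at 4.89 FPKM, Cxcl10 at 2.43, Ccl2 at 2.24 and Ccl4 at 0.327, each above the other FMT-DSS libraries. The other was Cxcl1 in FMT-CON 3, at 0.464 FPKM on 16 fragments, above 1 to 3 fragments in the other FMT-CON libraries. That library had 3592 FPKM of pituitary markers and 7.44 FPKM of monocyte and neutrophil markers, whose part in the value was not tested.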

How the results depend on the processing

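For the 7 members tested, 160 alternative values were computed in each comparison, and the direction was kept in 151 for FMT-DSS against FMT-CON, 156 for FMT-SP against FMT-DSS and 146 for FMT-SP against FMT-CON. For Ccl4 and Ccl5 the direction changed in 3, 7 and 5 of 42. Many of these alternatives cannot change a log2 change and so kept its direction by construction. They are the robust fit, no filter, the replicate block, the fit of only the 8 libraries compared and leaving out libraries of the third group. The counts therefore overstate how stable the directions are. No member passed the threshold under any alternative, and no gene passed in any comparison except 1, Gm34507, in FMT-SP against FMT-CON with array weights (log2 change -1.66, adjusted p = 0.00814 by limma; smallest 0.253 with equal weights). With the replicate block, 0 genes passed in each comparison, and 1606, 1196 and 440 genes were at an unadjusted p under 0.05, against 772, 563 and 136 without it. Same-numbered libraries correlated from -0.36 to 0.65 in their deviations from the group means, above 0.1 in 8 of 12 pairs. The 3 pairs of libraries numbered 4, which share a large mitochondrial share, had 0.50, 0.56 and 0.65, and each of those libraries correlated best with the others of its number. The other 4 of the 12 pairs were at 0.1 or under, and not every library correlated best with its own number. The numbers were therefore not taken to pair the libraries. These correlations cannot settle if the numbers mark a shared source, so the replicate block was run as an alternative.

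Without FMT-DSS 2 and FMT-DSS 4, log2 changes against FMT-CON turned to -0.35 for Cxcl1, -0.51 for Ccl2, -0.39 for Ccl3, 0.0206 for Cx3cl1, 0.16 for Cxcl12 and 0.0203 for Cxcl14, and in FMT-SP against FMT-DSS to 0.48 for Cxcl1, 0.25 for Ccl2 and -0.0391 for Cx3cl1. In FMT-SP against FMT-CON, array weights gave -0.67 for Cxcl1 and 0.0244 for Cx3cl1, while equal nuclear totals gave 0.0093 and quantile normalization 0.0212 for Cx3cl1. The cause of these was not tested.

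Leaving out 1 library at a time gave, in FMT-DSS against FMT-CON, -0.64 to 0.88 for Ccl2 and -0.13 to 0.63 for Ccl3, the lowest without FMT-DSS 2, and 0.50 to 2.26 for Cxcl1. In FMT-SP against FMT-DSS it gave -1.15 to 0.37 for Ccl2, and in FMT-SP against FMT-CON -0.10 to 0.61 for Cxcl1, -0.31 to 0.28 for Cxcl10, -0.0710 to 0.0181 for Cx3cl1 and -0.0207 to 0.12 for Cxcl14. Members under 1 FPKM could not be tested with the filter at 1 FPKM. A level under 3 fragments, about 0.1 FPKM for the inducible genes, is at the limit of detection.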
